A study of Mus musculus with 15 samples.

Results

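Nicotinic acetylcholine receptors are the ion channels that open when acetylcholine or nicotine binds, and their subunits were read here in mouse small cell lung cancer. The members are 9 subunit genes, Chrna1, Chrna3, Chrna4, Chrna5, Chrna7, Chrna9, Chrnb1, Chrnb2 and Chrnb4, chosen by name together with every array probe set annotated to 1 of them alone. They are 9 of the 18193 genes and 20 of the 45037 probe sets measured. A level is the deposited log2 expression value of a probe set on 1 array, and a gene is read through its brightest probe set, the one with the highest mean over all arrays. The array compares a probe set across samples only, so levels of different genes are not ranked against each other. A level below 5 is called near background: 24.2% to 26.2% of all probe sets on an array lie there, and the bacterial TrpnX control probe sets, for which a mouse sample has no target, read 3.73 to 4.33.

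The study set engineered mouse tumours that model small cell lung cancer, a neuroendocrine tumour, against normal lung on Affymetrix whole-genome mouse arrays. There were 10 tumours deleted for Rb and p53 (RbΔ/Δ; p53 Δ/Δ), collected 8 to 12 months after Cre was delivered through the nose by adenovirus. A further 3 tumours lacked p130 as well (p130 Δ/Δ on top of the same deletions) and were collected at 6 months, so genotype and time after infection cannot be told apart. The controls were 2 wild-type lungs of adult mice without tumours, which the labels do not describe as infected. The labels name neither the promoter driving Cre nor the mouse each sample came from, so the p-values below measure the spread between samples, which may be partly technical. RNA came from whole dissected tissue and was amplified in 2 rounds. In such bulk samples, fewer cells of a type and less RNA per cell cannot be told apart.

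Array medians ran from 6.58 to 6.68, no pair of arrays held identical values, and the normal lungs correlated at r = 0.98 across probe sets. The mean level of 9 measured neuroendocrine markers was 5.26 and 5.69 in the lungs, 11.17 to 12.00 in Rb/p53 tumours and 11.30 to 11.63 in Rb/p53/p130 tumours, which matches the tumour label. Markers of endothelium ran the other way, at 11.53 and 12.08 in the lungs, 6.23 to 8.77 in Rb/p53 tumours and 7.07 to 7.57 in Rb/p53/p130 tumours.

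Each receptor is a ring of subunits. The Chrna3, Chrna5 and Chrnb4 products form the receptor of autonomic ganglia from 1 gene cluster, those of Chrna4 and Chrnb2 the main receptor of the brain, and those of Chrna7 and Chrna9 receptors that need no beta subunit. Chrna1 and Chrnb1 encode subunits of the receptor at the nerve-muscle junction. In the lung, neuroendocrine cells and small cell lung cancer lines have long been studied as targets of nicotine, which binds these receptors.

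Against normal lung, Chrnb2 rose at 1 of its 3 probe sets and Chrnb1 fell at its only one, in both tumour genotypes. The other 7 subunit genes did not pass the test at their brightest probe set. The test was limma's moderated test with 3 groups in 1 fit, and a probe set was called at an adjusted p (Benjamini-Hochberg over all probe sets) under 0.05. In Rb/p53 tumours 1 of 9 genes was called higher, where 18.3% of all genes were, and 1 of 9 lower, where 20.5% were. In Rb/p53/p130 tumours the counts were again 1 higher, beside 15.3% of all genes, and 1 lower, beside 15.6%. Of the 20 probe sets, 3 were called in Rb/p53 tumours, where 32.1% of all probe sets were, and 2 in Rb/p53/p130 tumours, where 25.1% were. For 17 of the 20 probe sets the group means lay within 0.5 of each other. The groups did not overlap for 3 of 9 genes in Rb/p53 tumours (Chrna5, Chrnb1 and Chrnb2), where 38.4% of all genes did not, and for 5 of 9 in Rb/p53/p130 tumours (these and Chrna3 and Chrna4), where 66.0% did not. Both comparisons share the same pair of normal lungs.

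**Figure D1:**
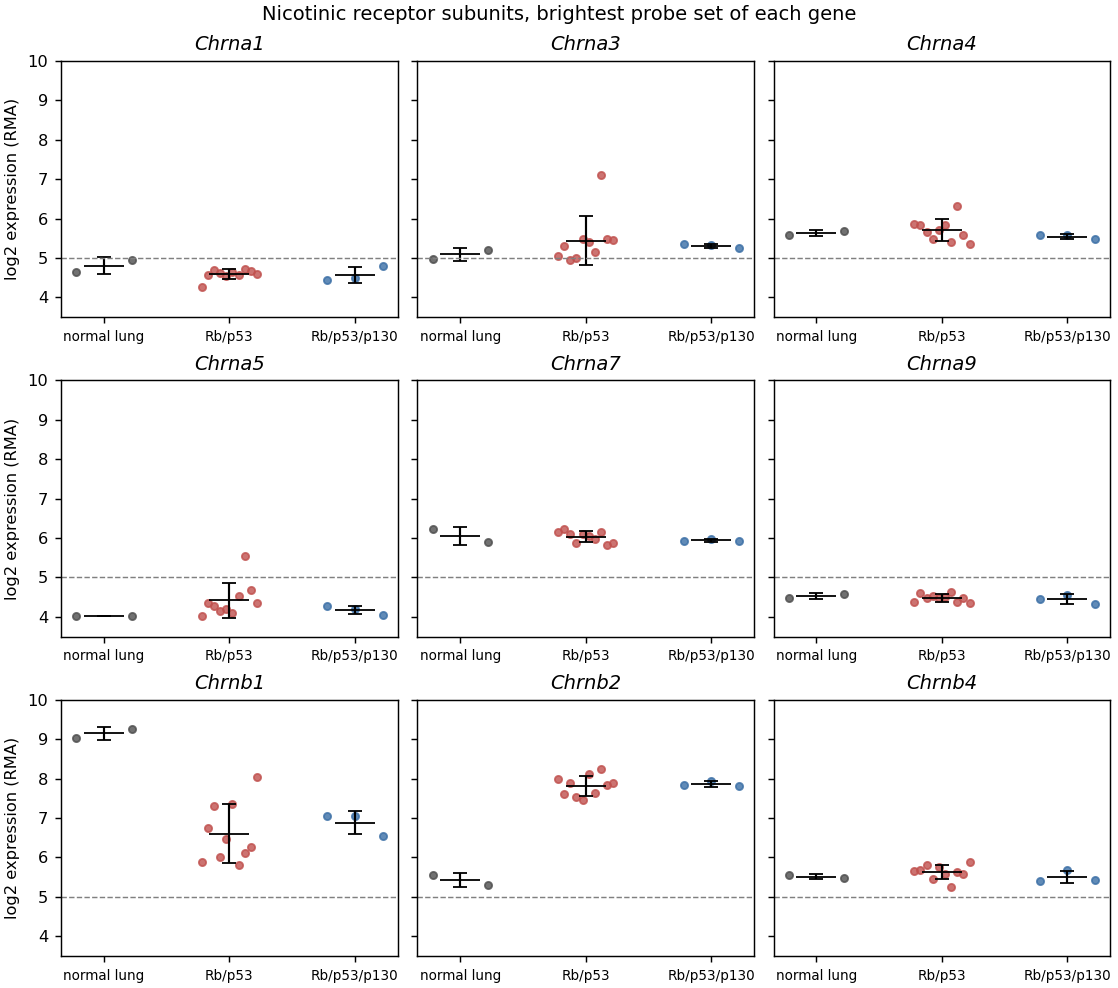
Level of each subunit gene (log2 expression, vertical axis) at its brightest probe set on every array, by group; each point is 1 array, bars are the mean and SD (2 lungs, 10 Rb/p53 and 3 Rb/p53/p130 tumours) and the dashed line marks the near-background level of 5. Chrnb1 is higher and Chrnb2 lower in both lungs than in all 13 tumours, and in Chrna3 and Chrna5 a single Rb/p53 tumour sits above the rest.

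Near background lay 9 of the 20 probe sets in every group mean, and 6 of them on every array. All probe sets of 3 genes, Chrna1, Chrna5 and Chrna9, were below 5 in every group mean, while 8 of the 20 probe sets were above it in all 3 groups. For the genes near background a difference from lung is limited by the signal, and folds are given as lower bounds with the dim group set at 5 or its own value.

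**Figure D2:**
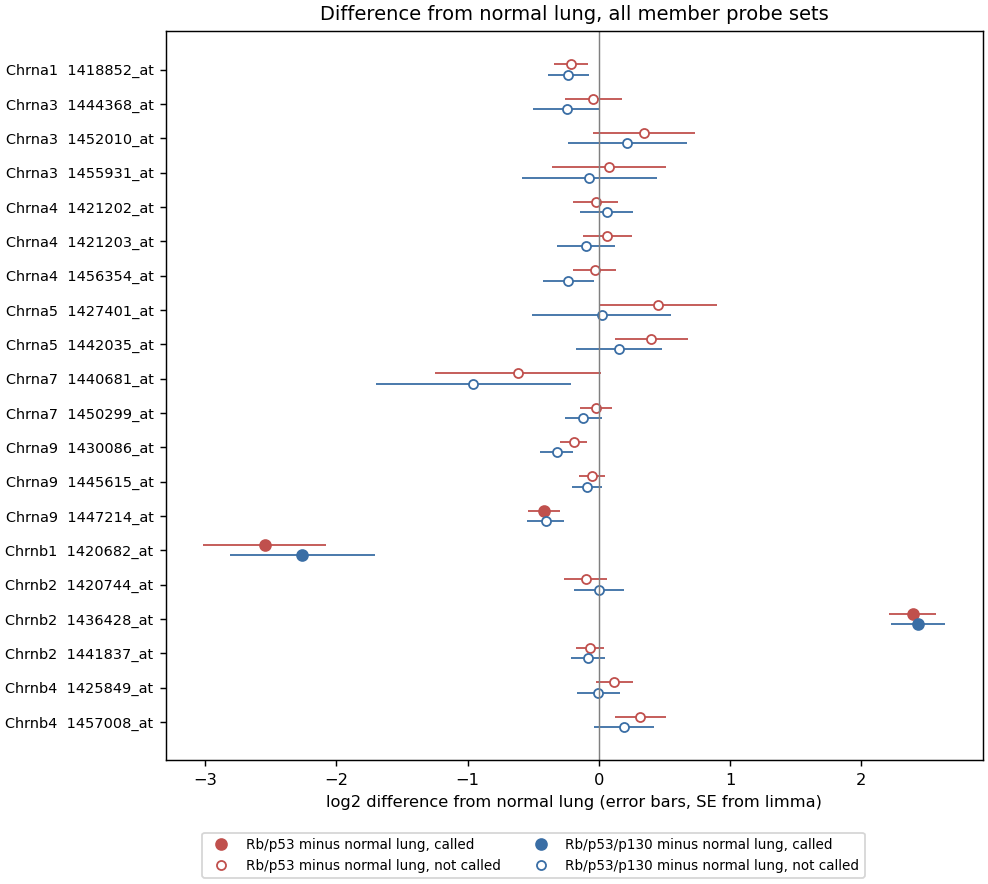
Difference of each of the 20 member probe sets from normal lung (log2, horizontal axis) in Rb/p53 (red) and Rb/p53/p130 tumours (blue), with the SE of the fit as error bars; filled points were called. Only 1 probe set each of Chrnb1, Chrnb2 and Chrna9 is filled, with Chrnb1 near -2.55 and -2.26 and Chrnb2 near 2.39 and 2.43.

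None of the 3 genes of the ganglionic cluster on chromosome 9 was called against lung, and 1 tumour stood apart at Chrna3 and Chrna5. Chrna3, whose product supplies the ligand-binding alpha subunit, read 4.98 and 5.21 in the lungs at probe set 1452010_at. The Rb/p53 tumours ran from 4.94 through a median of 5.36 to 7.10, and the Rb/p53/p130 tumours read 5.35, 5.32 and 5.26. Rb/p53 tumour 8 was far above the rest, the other 9 overlapped the lungs, and the Rb/p53/p130 tumours lay just above both lungs. The group difference was 0.34 ± 0.39 (SE; limma adjusted p = 0.55, 95% interval -0.48 to 1.17) in Rb/p53 and 0.22 ± 0.45 (adjusted p = 0.794) in Rb/p53/p130 tumours, so neither was called.

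The same tumour stood out at every probe set of Chrna3 and of its neighbour Chrna5, whose product joins the receptor as an accessory subunit. Tumour 8 read 7.10 at 1452010_at against 5.26 ± 0.22 (SD) in the other 9 Rb/p53 tumours, a 3.59-fold difference. At 1455931_at it read 6.61 against 4.65 ± 0.35 and at 1444368_at 5.76 against 4.95 ± 0.20, at least 2.96-fold and at least 1.65-fold higher. For Chrna5 it read 6.17 against 4.27 ± 0.41 at 1427401_at, at least 2.26-fold higher, and 5.53 against 4.29 ± 0.21 at 1442035_at, at least 1.45-fold higher. At both Chrna5 probe sets tumour 8 was the only array of the 15 above 5: the lungs read 4.03 and 4.02 at 1442035_at, and the Rb/p53/p130 tumours 4.27, 4.20 and 4.05. All 13 tumours lay above both lungs there, by a difference of 0.40 ± 0.28 (limma adjusted p = 0.312) in Rb/p53 and 0.16 ± 0.33 (adjusted p = 0.794) in Rb/p53/p130 tumours, not called and within the near-background range for all but tumour 8. Tumour 8 was picked out after its values were seen, so these differences are a description, with no test. Tumour 8 also held the highest mean of the 5 measured peripheral neuron and Schwann cell markers, 7.82, against 6.31 to 7.46 in the other Rb/p53 tumours and 6.15 and 6.28 in the lungs. Its mean of the 6 measured tuft cell markers was 6.31, against 5.62 to 6.03 in the other Rb/p53 tumours and 5.83 and 5.95 in the lungs. The part of these markers in the high Chrna3 and Chrna5 values was not tested.

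Chrnb4, which encodes the beta subunit that pairs with Chrna3 and is transcribed beside it, did not share the high values of tumour 8. It read 5.56 and 5.47 in the lungs at 1425849_at, 5.26 through a median of 5.64 to 5.89 in Rb/p53 tumours, and 5.41, 5.69 and 5.43 in Rb/p53/p130 tumours. Tumour 8 stood at 5.64 against 5.63 ± 0.19 in the other 9, and at the second probe set, 1457008_at, at 5.35 against 5.09 ± 0.29. Over all arrays 1425849_at stayed within 5.26 to 5.89, and 1457008_at averaged 4.80 in lung, near background. Whether either probe set can register a rise of Chrnb4 was not tested. The differences from lung at 1425849_at were 0.12 ± 0.14 (limma adjusted p = 0.572) and 0.00 ± 0.16 (adjusted p = 0.994), and the groups overlapped.

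**Figure D3:**
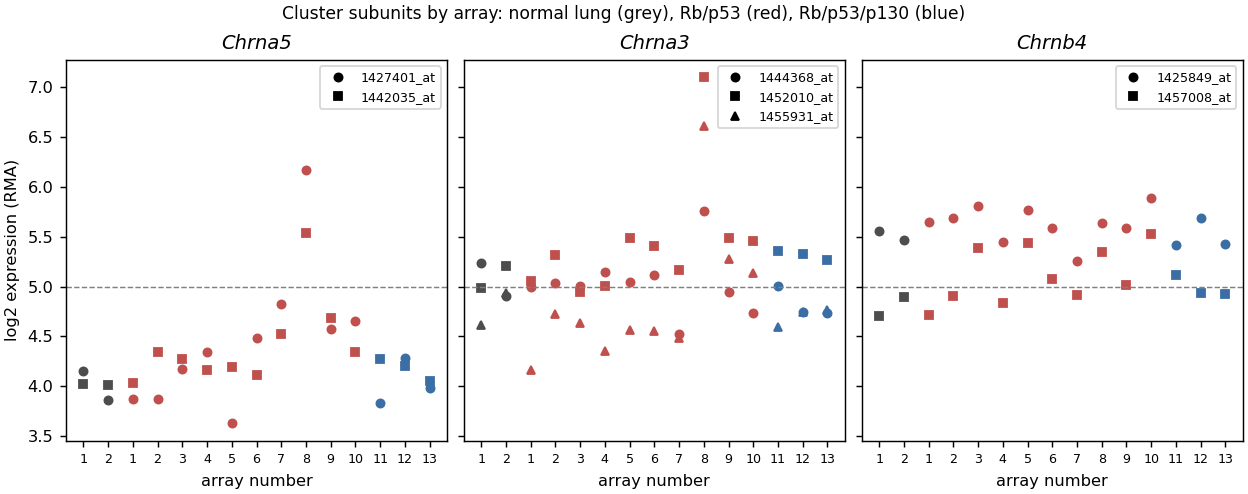
Level (log2 expression) of every probe set of Chrna5, Chrna3 and Chrnb4 on each array, numbered as in the labels, in normal lung (grey), Rb/p53 (red) and Rb/p53/p130 tumours (blue); symbols mark probe sets and the dashed line is the level of 5. All 5 probe sets of Chrna5 and Chrna3 peak in tumour 8, and neither probe set of Chrnb4 does.

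The windows upstream of the 3 cluster genes are shown because Chrna3 and Chrna5 were high together and Chrnb4 was not. They are the 250 bases before each annotated start, from RefSeq on GRCm38.p6, and RefSeq windows matched all 9 members (10 windows, since Chrna5 has a pair of starts). Capitals mark the E-box CANNTG, the site letters of basic helix-loop-helix factors, and the GC box GGGCGG, those of Sp factors, on both strands. No E-box shared a base with a GC box, and matches of 1 motif could overlap each other. Of all 32851 windows of this length, 66.2% held an E-box and 32.7% a GC box, so a match is only a description. The Chrna5 window at chr9:54981238-54981487 (plus strand) is the GC-rich one of its pair, the Chrna3 window is at chr9:55026563-55026812 (minus strand) and the Chrnb4 window is at chr9:55048545-55048794 (minus strand).
Chrna5: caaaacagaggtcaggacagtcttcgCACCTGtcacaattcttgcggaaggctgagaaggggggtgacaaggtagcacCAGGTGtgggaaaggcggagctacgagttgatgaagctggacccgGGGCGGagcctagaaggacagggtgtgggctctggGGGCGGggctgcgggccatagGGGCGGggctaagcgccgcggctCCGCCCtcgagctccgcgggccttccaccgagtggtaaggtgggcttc
Chrna3: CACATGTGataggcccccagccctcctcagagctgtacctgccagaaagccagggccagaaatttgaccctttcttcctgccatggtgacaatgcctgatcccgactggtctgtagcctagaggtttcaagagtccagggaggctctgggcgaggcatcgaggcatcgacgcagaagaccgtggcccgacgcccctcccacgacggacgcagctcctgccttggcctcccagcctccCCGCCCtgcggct
Chrnb4: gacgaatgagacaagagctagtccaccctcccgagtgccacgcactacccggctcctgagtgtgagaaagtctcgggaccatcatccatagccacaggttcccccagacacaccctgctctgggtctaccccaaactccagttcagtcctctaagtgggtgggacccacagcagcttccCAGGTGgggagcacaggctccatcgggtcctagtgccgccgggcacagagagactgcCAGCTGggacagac
The Chrna5 window held 2 E-boxes and 4 GC boxes, the Chrna3 window 2 overlapping E-boxes and 1 GC box, and the Chrnb4 window 2 E-boxes with no GC box among its letters. Their GC content was 65.2%, 63.2% and 61.2%, against a median of 52.4% over all windows. The window at the other Chrna5 start, chr9:54980630-54980879 (plus strand), held 1 E-box and, like that of Chrnb4, 0 GC boxes, at 40% GC.

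Most of the flanking genes were not high in tumour 8. Psma4, a proteasome subunit gene next to Chrna5, read 12.81 there against 12.46 ± 0.25 in the other 9 tumours. That was the highest Psma4 value of the Rb/p53 tumours, just above the next at 12.78. Ireb2, which encodes an iron-responsive RNA-binding protein, read 10.26 against 10.13 ± 0.23, and Hykk, a hydroxylysine kinase gene, 6.05 against 5.96 ± 0.15. Ube2q2, on the other side of Chrnb4, read 8.58 against 9.12 ± 0.25. Crabp1, a retinoic acid-binding protein gene beyond Ireb2, was the largest exception at 11.16, but the other 9 tumours themselves varied widely there (6.68 ± 2.12).

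**Figure D4:**
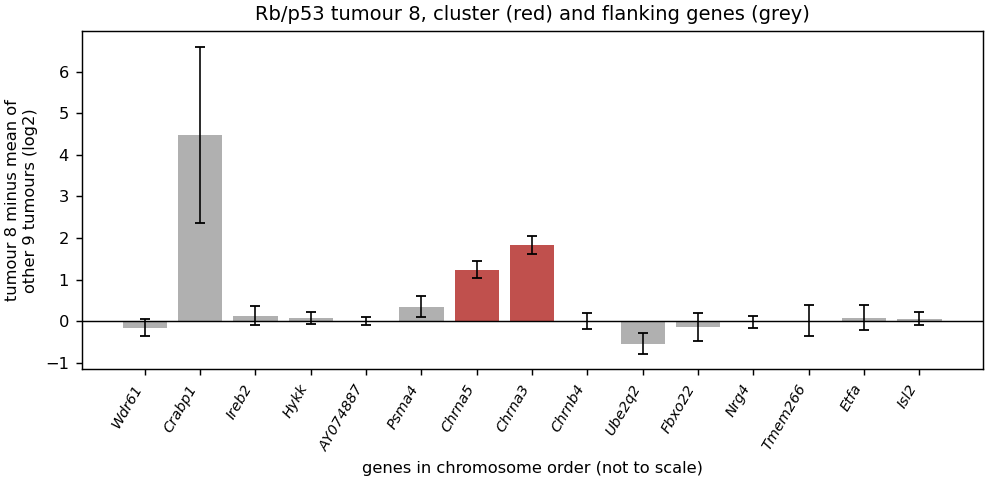
Level of Rb/p53 tumour 8 minus the mean of the other 9 Rb/p53 tumours (log2, vertical axis) for the 3 cluster subunits (red) and the genes flanking them (grey), in chromosome order and not to scale; error bars are the SD of the other 9 tumours. Chrna5 stands at 1.24 and Chrna3 at 1.84, beside 0.35 for Psma4, 0.00 for Chrnb4 and 4.48 for the variable Crabp1.

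Of the factors known to act on this cluster, 5 of 7 listed were measured. None was called higher in either genotype, where 18.3% and 15.3% of all genes were, and 1 lower, where 20.5% and 15.6% were. Rest, a repressor of neuronal genes, was called lower: the lungs read 8.81 and 9.13, the Rb/p53 tumours 6.40 through 7.05 to 8.04, and the Rb/p53/p130 tumours 6.89, 6.99 and 7.46, without overlap. The difference was -1.78 ± 0.35 (limma adjusted p = 0.00112) and -1.86 ± 0.41 (adjusted p = 0.00379), and the list's median was 0.01 and 0.29, against -0.02 for all genes in both comparisons. In tumour 8 Rest was 6.81 against 7.23 ± 0.55 in the other 9. Phox2a, a homeobox factor of autonomic neurons, was highest of the Rb/p53 tumours in tumour 8, at 7.08 against 5.91 ± 0.43. Its group difference from lung, 0.76 ± 0.39, was not called (limma adjusted p = 0.156).

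The neighbours of the cluster were tested as a list of 10, of which 8 were measured. Higher in Rb/p53 tumours were 2, Psma4 by 1.16 ± 0.18 (limma adjusted p = 0.000178; 0.21 with the Gapdh covariate described with Chrnb1, adjusted p = 0.812) and Idh3a, a citric acid cycle enzyme gene, by 0.88 ± 0.13 (adjusted p = 0.000137). Lower were 2, Ctsh, a lysosomal protease gene, at -1.87 ± 0.47 (adjusted p = 0.00625) and Hykk at -0.46 ± 0.12 (adjusted p = 0.00704). Without normal lung 2, Ctsh stood at -1.72 (adjusted p = 0.081) and Hykk at -0.37 (adjusted p = 0.121). In Rb/p53/p130 tumours 2 were higher and 1 lower. The list's median was -0.01 and 0.04, against -0.02 for all genes. Probe sets of a neighbour disagreed: another of Hykk fell by 3.46 (limma adjusted p = 1.43e-08), from 8.09 in lung to 4.63 in Rb/p53 tumours, and of the 4 of Idh3a, 2 were called higher and 2 were not called.

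Chrna4 and Chrnb2, the subunits of the main brain receptor, behaved differently from each other in the test. Chrnb2 read 5.55 and 5.31 in the lungs at 1436428_at. The Rb/p53 tumours ran from 7.47 through a median of 7.87 to 8.24, and the Rb/p53/p130 tumours read 7.83, 7.95 and 7.82. All 13 tumours lay above both lungs, with the tumours of each genotype close together (SD 0.26 and 0.07). Chrnb2 was 5.25-fold higher in Rb/p53 tumours, a difference of 2.39 ± 0.18 (limma adjusted p = 1.27e-07, 95% interval 2.01 to 2.77). In Rb/p53/p130 tumours it was 5.41-fold higher, a difference of 2.43 ± 0.21 (adjusted p = 8.28e-07).

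That rise was seen at 1 of the 3 probe sets of Chrnb2. This probe set, 1436428_at, was the brightest over all arrays through its tumour values. In lung it averaged 5.43, below the 5.75 of 1420744_at, so the call of the gene partly follows from how its probe set was chosen. At 1420744_at the lungs read 5.56 and 5.94, the Rb/p53 tumours 5.28 to 5.94 and the Rb/p53/p130 tumours 5.86, 5.71 and 5.67. At 1441837_at the lungs read 5.17 and 5.20, and the tumours 4.92 to 5.29. Neither was called (limma adjusted p = 0.696 and 0.691 in Rb/p53 tumours). Averaged over the 3 probe sets, the Chrnb2 difference was 0.74 in Rb/p53 and 0.78 in Rb/p53/p130 tumours, still called (adjusted p = 0.00838 and 0.0128). Which transcript parts the probe sets read was not analysed here.

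At 1436428_at, the only one of its probe sets compared with the markers, Chrnb2 was higher in the tumours with higher neuroendocrine marker levels. Over the 10 Rb/p53 tumours r was 0.87 and rho 0.85 (permutation p = 0.00221 and 0.00277, adjusted over 24 relations of Chrnb1 and Chrnb2 with 12 marker lists 0.0137 and 0.0133), and r was 0.95 without the 2 farthest tumours. Of the 12 lists 1 more passed with Chrnb2, that of peripheral neurons and Schwann cells (r = 0.80 and rho = 0.92, adjusted permutation p = 0.0212 and 0.0127, and r = 0.63 without the 2 farthest). A gap in the neuroendocrine mean set 4 tumours (1, 6, 8 and 10), at 11.88 to 12.00, apart from the other 6, at 11.17 to 11.58, with Chrnb2 at 7.89 to 8.24 and 7.47 to 7.89. At 1420744_at the same 4 tumours read 5.53 to 5.81 and the other 6 read 5.28 to 5.94. At 1441837_at they read 4.92 to 5.29 and 4.95 to 5.24. Within the 6, r at 1436428_at was 0.85 and rho 0.89 (exact permutation p = 0.0306 and 0.0333, adjusted over 3 relations 0.0918 and 0.0999), and r was 0.75 without the 2 farthest. The relation passed the correction over all 10 tumours and not within the 6, and the part of these markers in the Chrnb2 result was not tested.

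Chrna4, the alpha subunit of that receptor, was near its lung level. It read 5.59 and 5.70 in the lungs at 1421203_at, 5.36 through a median of 5.69 to 6.33 in Rb/p53 tumours, and 5.58, 5.58 and 5.48 in Rb/p53/p130 tumours. The differences from lung were 0.07 ± 0.19 (limma adjusted p = 0.834) and -0.10 ± 0.22 (adjusted p = 0.815). The highest value, 6.33, was again tumour 8, against 5.64 ± 0.19 in the other 9, but at the other Chrna4 probe sets tumour 8 did not stand apart. At 1421202_at tumour 8 was also the highest Rb/p53 tumour, at 4.86, with tumour 4 next at 4.80. At 1456354_at it read 4.30, inside the range of the others. Both values were near background, as were the group means there.

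The window upstream of Chrnb2, the member that rose, is at chr3:89764633-89764882 (minus strand, RefSeq, GRCm38.p6), and that of Chrnb1, the member that fell, at chr11:69795938-69796187 (minus strand). They are shown side by side with the same motifs in capitals.
Chrnb2: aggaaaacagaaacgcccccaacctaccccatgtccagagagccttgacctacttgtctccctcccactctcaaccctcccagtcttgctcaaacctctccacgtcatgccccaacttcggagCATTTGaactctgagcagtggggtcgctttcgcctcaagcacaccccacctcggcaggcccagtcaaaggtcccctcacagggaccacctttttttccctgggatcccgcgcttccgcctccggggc
Chrnb1: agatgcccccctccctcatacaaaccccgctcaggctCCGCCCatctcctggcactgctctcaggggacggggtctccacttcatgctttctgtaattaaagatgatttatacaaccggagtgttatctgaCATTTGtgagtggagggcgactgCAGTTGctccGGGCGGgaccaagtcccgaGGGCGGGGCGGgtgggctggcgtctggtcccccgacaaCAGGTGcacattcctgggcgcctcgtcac
The Chrnb2 window held 1 E-box and no GC box, at 59.6% GC, and the Chrnb1 window 3 E-boxes and 4 GC boxes, at 60.4% GC. As above, 66.2% and 32.7% of all windows held these letters.

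Chrna7, which encodes a receptor made of alpha subunits alone, read 6.22 and 5.89 in the lungs at 1450299_at. The Rb/p53 tumours ran from 5.83 through a median of 6.08 to 6.24, and the Rb/p53/p130 tumours read 5.93, 5.97 and 5.92. The groups overlapped, with differences of -0.02 ± 0.12 (limma adjusted p = 0.929) and -0.12 ± 0.14 (adjusted p = 0.615). The other probe set, 1440681_at, varied far more: the lungs read 5.95 and 5.95, and the Rb/p53 tumours 4.40 through 5.08 to 8.00. The Rb/p53/p130 tumours read 5.13, 5.05 and 4.80 there, and every tumour except Rb/p53 tumour 1 lay below both lungs. Rb/p53 tumour 1 held the value of 8.00, against 5.04 ± 0.44 in the other 9 tumours. That is a 7.80-fold difference, and at 1450299_at the same tumour read 6.14, inside the range of the others. Its group differences, -0.61 ± 0.63 and -0.96 ± 0.74, were not called (limma adjusted p = 0.512 and 0.402).

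Chrna9, the subunit of the receptor on cochlear hair cells, was below 5 on every array at all 3 probe sets. At 1445615_at, its brightest, the lungs read 4.48 and 4.59, the Rb/p53 tumours 4.35 through 4.49 to 4.63, and the Rb/p53/p130 tumours 4.45, 4.57 and 4.32. The dimmest of the 3, 1447214_at, was called lower in Rb/p53 tumours, at -0.42 ± 0.12 (limma adjusted p = 0.0161), with the lungs at 4.54 and 4.51 and the tumours at 3.83 to 4.38. Since all of these values lie in the near-background range, no fold is given. The call was lost without normal lung 1 (-0.40, adjusted p = 0.121) and without normal lung 2 (-0.43, adjusted p = 0.0917).

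Chrnb1, the beta subunit of the muscle receptor, was the member that fell. It read 9.03 and 9.26 in the lungs at its single probe set, 1420682_at. The Rb/p53 tumours ran from 5.82 through a median of 6.37 to 8.04, and the Rb/p53/p130 tumours read 7.06, 7.04 and 6.55. Every tumour lay below both lungs, with tumour 10 the highest of the 13. Chrnb1 was 5.84-fold lower in Rb/p53 tumours (-2.55 ± 0.47, limma adjusted p = 0.000669, 95% interval -3.55 to -1.55) and 4.79-fold lower in Rb/p53/p130 tumours (-2.26 ± 0.55, adjusted p = 0.00714).

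The Chrnb1 call did not hold in every setting. With the Gapdh 3' to 5' signal difference, a measure of RNA integrity, as a covariate, the values were -2.70 (limma adjusted p = 0.229) and -2.43 (adjusted p = 0.349), the former with an SE of 1.16. That difference was 0.88 and 0.72 in the lungs and -0.07 to 0.36 in the tumours, so it moved with the comparison without overlap, and its part was not tested further. Without normal lung 2, the Rb/p53/p130 value was -2.15 (adjusted p = 0.0568).

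Chrna1, the alpha subunit of the muscle receptor, was near background in all groups. It read 4.66 and 4.96 in the lungs at 1418852_at, 4.26 through a median of 4.61 to 4.73 in Rb/p53 tumours, and 4.43, 4.49 and 4.81 in Rb/p53/p130 tumours. The differences, -0.21 ± 0.13 and -0.23 ± 0.15, were not called (limma adjusted p = 0.239 and 0.315). The remaining muscle subunits Chrnd, Chrng and Chrne were not called either. Chrnd read 6.42 and 6.49 in the lungs and 6.36 to 6.99 in Rb/p53 tumours, Chrng 5.65 and 5.67 against 5.28 to 5.82, and Chrne 6.00 and 6.05 against 5.63 to 6.29. Of the muscle receptor's 5 measured subunit genes, Chrnb1 was thus the 1 that passed the test.

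Markers of several lung cell types moved in the direction of Chrnb1. Called lower in Rb/p53 tumours were 6 of 6 endothelial, 6 of 6 alveolar type 1, 5 of 6 alveolar type 2, 5 of 7 club and ciliated and 6 of 6 heart muscle markers. Of all genes 20.5% were called lower there. Heart muscle markers averaged 11.16 and 11.35 in the lungs and 5.00 to 8.24 in Rb/p53 tumours. Skeletal muscle markers averaged 5.77 and 5.93 in the lungs and 5.33 to 5.79 in Rb/p53 tumours, with 2 of 8 near background in lung and 3 of 8 in the tumours. The part of any of these cells in the fall of Chrnb1 was not tested.

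Among the 10 Rb/p53 tumours, 5 of the 12 marker lists passed with Chrnb1 by r and 4 by rho, with p adjusted over the same 24 relations. These were the endothelial (r = 0.86 and rho = 0.87, adjusted permutation p = 0.0137 and 0.0127), club and ciliated (r = 0.85 and rho = 0.78, 0.0137 and 0.042), alveolar type 1 (r = 0.84 and rho = 0.88, 0.0137 and 0.0127), alveolar type 2 (r = 0.81 and rho = 0.87, 0.0212 and 0.0127) and, by r alone, macrophage lists (r = 0.78 and rho = 0.75, 0.0281 and 0.0597). Without the 2 farthest tumours r was 0.81, 0.72, 0.79, 0.83 and 0.77. Skeletal muscle and heart muscle markers did not pass (r = -0.21 and 0.01). The endothelial marker mean was 8.09 to 8.77 in 4 (tumours 3, 5, 6 and 10) and 6.23 to 7.39 in the other 6. Chrnb1 read 6.47 to 8.04 in the former and 5.82 to 6.74 in the latter. The same 4 tumours were highest for alveolar type 2 markers, at 11.78 to 12.17 against 8.79 to 10.63. Within the other 6, Chrnb1 and the endothelial mean correlated at r = 0.73 and rho = 0.60 (exact permutation p = 0.106 and 0.242, adjusted over 3 relations 0.159 and 0.242). Over the 4 of them left without the 2 farthest, r was -0.29. For alveolar type 2 markers r was 0.51 and rho 0.60 (exact permutation p = 0.317 and 0.242, adjusted 0.317 and 0.242), and r was 0.83 over the 4 left without the 2 farthest.

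**Figure D5:**
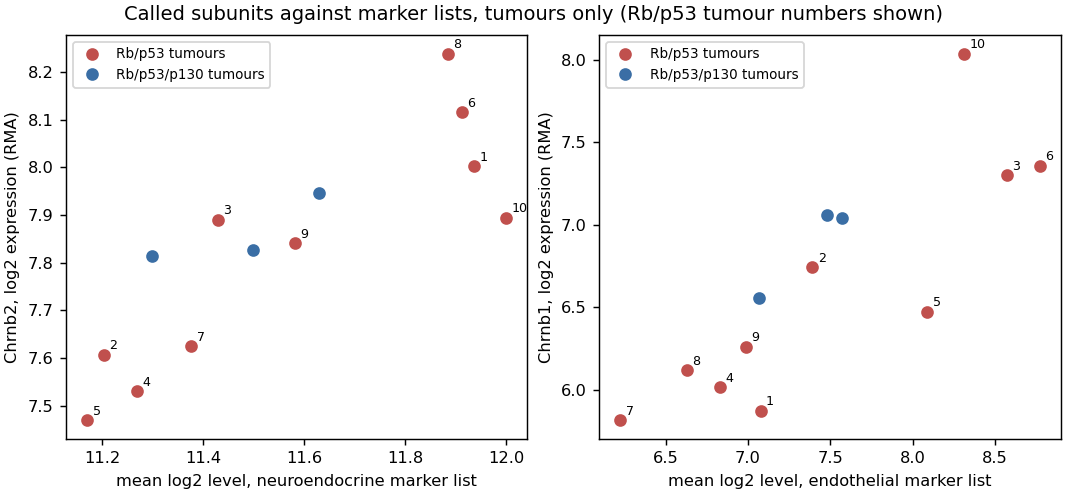
Level of Chrnb2 against the mean of the neuroendocrine markers (left) and of Chrnb1 against the mean of the endothelial markers (right), all in log2, in the 10 Rb/p53 (red, numbered) and 3 Rb/p53/p130 tumours (blue); each point is 1 tumour. Tumours 1, 6, 8 and 10 hold the highest neuroendocrine means with Chrnb2 at 7.89 or above, and tumours 3, 5, 6 and 10 the highest endothelial means with Chrnb1 at 6.47 or above.

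Between the tumour genotypes, no subunit was called. Of 9 genes and 20 probe sets, 0 passed limma's test, beside 0.0715% of all genes and 0.211% of all probe sets, and 0 had an unadjusted p under 0.05. For Chrnb2 the difference of Rb/p53/p130 from Rb/p53 tumours was 0.04 ± 0.15 (limma adjusted p = 0.963), and its 95% interval of -0.28 to 0.36 bounds it closely. For Chrnb1 it was 0.29 ± 0.40 (adjusted p = 0.876), with a wider interval of -0.56 to 1.14. For Chrna3 the interval was -0.83 to 0.57, with tumour 8 among the Rb/p53 tumours. The groups overlapped for all 20 probe sets.

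Among the 10 Rb/p53 tumours, 0 of the 36 pairs of subunits passed the adjusted threshold by Pearson's r or Spearman's rho, and 4 and 2 pairs had an unadjusted permutation p under 0.05. The highest coefficient was that of Chrna3 and Chrna5, r = 0.90 and rho = 0.52 (permutation p = 0.0181 and 0.133, adjusted 0.271 and 0.91). Without the 2 tumours farthest from the Chrna3 median r was 0.38, so it rests on them, tumour 8 included. Chrnb1 and Chrnb4 gave r = 0.70 and rho = 0.68 (permutation p = 0.0226 and 0.0359, adjusted 0.271 and 0.646), and r = 0.73 without the 2 farthest. Chrna4 and Chrna7 gave r = 0.70 and rho = 0.75 (permutation p = 0.0191 and 0.0172, adjusted 0.271 and 0.619), and r = 0.71 without the 2 farthest.

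Genes whose levels were most like a subunit's were sought for Chrna3 and Chrnb1, the members with a mean above 5 in tumours and an SD of at least 0.3 among Rb/p53 tumours. Over 13 tumours and 15095 genes, Chrna3 was most like Lhx1 (r = 0.96), Asb4 (0.95) and Dlx1 (0.95). Lhx1 and Dlx1 encode homeobox factors of developing neurons. Tumour 8 set these values: without it they were 0.52, 0.47 and 0.39 over 12 tumours. Chrnb1 was most like Cd44, a hyaluronan receptor gene (r = 0.92), Rnh1, a ribonuclease inhibitor gene (0.92), and Lamb3, a laminin subunit gene of epithelial basement membrane (0.91). Those values were 0.92, 0.92 and 0.90 without tumour 8. All tumours share array type and amplification, while their tissue makeup varied, with an endothelial marker mean of 6.23 to 8.77 in Rb/p53 tumours. The part of that makeup in these coefficients was not tested, and they describe likeness only.

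The genes that build and place the receptors moved in both directions. With the Gapdh covariate described with Chrnb1, 14 of the 15 called genes named from the lists, all but Psca, lost their call in Rb/p53 tumours, and 13 of 14 in Rb/p53/p130 tumours, again all but Psca. Of 11 assembly and clustering genes, 3 were called higher and 2 lower in each genotype, with a median of 0.10 and -0.03 against -0.02 for all genes. Called higher were 18.3% of all genes in Rb/p53 and 15.3% in Rb/p53/p130 tumours, and lower 20.5% and 15.6%. Ric3, a chaperone needed to assemble Chrna7-type receptors, read 6.44 and 6.28 in the lungs, 7.76 through 8.23 to 8.61 in Rb/p53 tumours and 7.77, 7.78 and 7.92 in Rb/p53/p130 tumours. It did not overlap and rose by 1.89 ± 0.21 (limma adjusted p = 7.6e-06) and 1.47 ± 0.25 (adjusted p = 0.000486). Its other 2 probe sets were near background and not called. Dok7, an activator of the muscle kinase that clusters receptors, rose by 1.17 ± 0.19 (adjusted p = 0.000216) and 0.94 ± 0.22 (adjusted p = 0.00568). The latter call was lost without normal lung 1 (0.81, adjusted p = 0.0741). Agrn, the nerve-derived clustering signal, was lower at -1.60 ± 0.31 (adjusted p = 0.00112), and its receptor Lrp4 at -2.57 ± 0.46 (adjusted p = 0.000578). In Rb/p53/p130 tumours both were lower too, at -1.62 ± 0.37 (adjusted p = 0.0047) and -2.58 ± 0.55 (adjusted p = 0.00276).

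Among the Ly6 family proteins, small membrane-anchored or secreted proteins that tune nicotinic receptors, 1 of 8 was called higher and 4 of 8 lower in each genotype. The list's median was -0.59 and -0.42. Ly6h, a brain-enriched member that holds receptors back from the surface, read 5.69 and 5.50 in the lungs, 7.91 through 9.90 to 12.54 in Rb/p53 tumours and 10.46, 10.83 and 10.11 in Rb/p53/p130 tumours. It was 21.6-fold higher in Rb/p53 tumours (4.44 ± 0.99, limma adjusted p = 0.00299; 2.94 with the Gapdh covariate, adjusted p = 0.571) and higher by 4.87 ± 1.17 in Rb/p53/p130 tumours (adjusted p = 0.00653). All tumours lay above the lungs, and the spread among the 10 was wide (SD 1.62). Lower were Psca at -2.21 ± 0.33 (adjusted p = 0.000102), Lynx1, a brake on brain receptors, at -1.53 ± 0.34 (adjusted p = 0.00257) and Lypd6 at -1.41 ± 0.25 (adjusted p = 0.000498). Without normal lung 1 the Lynx1 values were -1.24 (adjusted p = 0.0765) in Rb/p53 and -1.19 (adjusted p = 0.142) in Rb/p53/p130 tumours, and that of Lypd6 in Rb/p53/p130 tumours was -0.64 (adjusted p = 0.274) instead of -0.99. The latter was also lost without Rb/p53/p130 tumour 11 (-0.98, adjusted p = 0.0564) or 12 (-0.90, adjusted p = 0.0731).

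Of the genes for making, loading, uptake and breakdown of acetylcholine, Chat, Slc18a3, Slc5a7 and Ache read close to or below 5 in most samples. Chat, the enzyme that makes acetylcholine, read 5.05 and 5.12 in the lungs and 4.66 to 5.36 in Rb/p53 tumours. The vesicle transporter Slc18a3 read 4.73 and 4.97 against 4.72 to 5.81. The choline transporter Slc5a7 read 4.63 and 4.74 against 4.04 to 4.75, and the breakdown enzyme gene Ache 4.75 and 4.97 against 4.45 to 4.84. Bche, also listed for breakdown, was brighter, at 7.91 and 8.37 in the lungs, 4.69 to 7.82 in Rb/p53 and 4.99 to 6.76 in Rb/p53/p130 tumours. It lay lower without overlap, at -1.63 ± 0.67 and -2.09 ± 0.79, and was not called (limma adjusted p = 0.0772 and 0.0666). Of the 8 listed genes 0 were called higher, beside 18.3% of all genes in Rb/p53 and 15.3% in Rb/p53/p130 tumours. Called lower in each genotype were 2, beside 20.5% and 15.6% of all genes (list median -0.29 and -0.23, against -0.02). These were the choline transporter-like genes Slc44a2, at -2.59 ± 0.30 (limma adjusted p = 1.04e-05), and Slc44a4, at -2.25 ± 0.36 (adjusted p = 0.000233). Of the other 2 probe sets of Slc44a2, 1 was called lower (-1.49, adjusted p = 0.017) and 1 was not called (0.04, adjusted p = 0.95). In Rb/p53/p130 tumours they stood at -2.08 ± 0.35 (adjusted p = 0.000477) and -1.72 ± 0.43 (adjusted p = 0.00829), the latter lost without normal lung 1 (-1.70, adjusted p = 0.0592).

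The other receptor genes were not called. Of the 6 measured nicotinic subunits outside the 9, 0 passed in either direction (median -0.11 and -0.19), and of the 3 measured muscarinic receptors, the other family that answers acetylcholine, also 0 (median 0.12 and 0.06, the latter in Rb/p53/p130 tumours). Called higher were 18.3% of all genes in Rb/p53 and 15.3% in Rb/p53/p130 tumours, and lower 20.5% and 15.6%. Between the genotypes 0 genes of any of these lists were called by limma, beside 0.0715% of all genes. Chrna10, Chrm2 and Chrm5 were not analysed here.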

How the data were processed

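Per the submitters' processing notes the authors made the deposited log2 values with RMA, which corrects background, equalises arrays and summarises probes; they name no version. Equalised distributions mean that a change is relative to the other genes, and array number, above all 2 normal lungs, limits precision. The 64 control probe sets among 45101 were dropped, and no filter on low values was applied. GEO's platform annotation gave 34945 probe sets 1 gene symbol, 932 several and 9160 none. The members and gene lists were chosen with earlier results of these data known. The 3 groups were fitted in limma 3.58.1 (R 4.3.3), tested on simulated data first, with Benjamini-Hochberg adjustment over 45037 probe sets. Named were all members, up to 4 called genes of each list with the largest change in Rb/p53 tumours and any gene a member's background needs, and the 3 genes most like a member. Flanking genes and Rb/p53 tumour 8 were picked after values were seen. Permutation tests used 100000 resamples, or all orders under 10 samples, two-sided (Python 3.11.15). Windows came from RefSeq. Figures were drawn with matplotlib 3.10.9. The alternatives are given in the closing section.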

Additional observations from a re-analysis of the deposited data

Results flagged for a closer look

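In 8 of the 20 member probe sets 1 of the 10 Rb/p53 tumours lay far from the other 9 by Dixon's test. Chance alone gives about 1 in 20 groups, and 8.68% of all probe sets on these arrays met the same rule. Tumour 8 was the high one in 6 of the 20, against 0.93% of all probe sets, and those 6 stem from 3 genes. They are the Chrna3 probe sets 1452010_at (7.10), 1455931_at (6.61) and 1444368_at (5.76), the Chrna5 probe sets 1427401_at (6.17) and 1442035_at (5.53) and the Chrna4 probe set 1421203_at (6.33). Tumour 1 was high at the Chrna7 probe set 1440681_at (8.00, against 5.04 ± 0.44 in the other 9) and low at the Chrna1 probe set 1418852_at (4.26, against 4.63 ± 0.07), where all levels are near background. Of the named genes outside the members, Dok7 was high in tumour 9 (10.08, against 9.34 ± 0.15), Lynx1 in tumour 5 (9.30, against 7.92 ± 0.30) and Psca in tumour 10 (7.33, against 6.05 ± 0.21).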

How the results depend on the processing

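The count of subunit genes called against lung, 2 in each genotype, fell to 1 in both with the Gapdh 3' to 5' difference as a covariate, which lost Chrnb1. In that fit 1989 and 1662 probe sets were called in all, against 14464 and 11287; the lungs and tumours do not overlap in this measure, and the cause of the loss was not tested. Leaving out 1 sample gave 2 throughout for Rb/p53 tumours and 1 to 2 for Rb/p53/p130 tumours. Chrnb2 was called in every alternative run, at 0.74 to 2.52 and 0.78 to 2.56, the lowest when its probe sets were averaged. Each run read it at 1436428_at or at a mean that includes that probe set. The runs therefore do not bear on 1420744_at and 1441837_at, which were not called. Averaging called Chrna9 lower (-0.22, limma adjusted p = 0.0372, and -0.27, adjusted p = 0.0365). Of 559 changes of a member not called in either fit, 37 had the other sign. Psma4 in Rb/p53/p130 tumours turned to -0.13 (limma adjusted p = 0.912) under the Gapdh covariate; the cause was not tested. The actin covariate was added after seeing the data, and kept both subunit calls. The Chrna9 probe set 1447214_at lost its call under the Gapdh and actin covariates and the block. With array weights 2674 probe sets differed between genotypes, against 95, and again 0 subunits. Replicate numbers are shared by lungs and Rb/p53 tumours alone, and their deviations correlated at 0.00 and -0.06. The deviations of the 2 lungs mirror each other, so these coefficients cannot show whether a shared number means a shared mouse or batch. With the replicate block 2 genes were called, with Chrnb1 at -2.84 and Chrnb2 at 2.38; Psma4 (0.75, limma adjusted p = 0.0924), Idh3a (0.72, adjusted p = 0.135) and Hykk (-0.60, adjusted p = 0.152) lost their calls, while all calls fell from 14464 to 7440 probe sets. No block could be fitted for the other comparisons, which share no number. The signal over background limits Chrna1, Chrna5 and Chrna9.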

Other observations

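Of the 49 measured genes of the 7 pathway lists, Rb/p53 tumour 8 was the highest of the 10 Rb/p53 tumours for 7 (14.3%) and the lowest for 5 (10.2%), beside 10.6% and 7.46% of all genes. The genes below were picked after its values were seen. Tmem35a, a chaperone gene for neuronal nicotinic receptors, read 7.40 there against 5.10 ± 0.83 in the other 9, although Rb/p53/p130 tumour 13 read 7.33 and the lungs 7.18 and 6.61. Slc18a3, which loads acetylcholine into vesicles, read 5.81 against 4.94 ± 0.20. Ly6h read 12.31, second to 12.54 in tumour 1, the tumour with the high Chrna7 probe set.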
